A study of Caenorhabditis elegans with 9 samples.

Results

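The nuclear hormone receptor family of Caenorhabditis elegans was followed across RNA sequencing libraries of whole animals at larval stage 4 (L4). Members were the rows of the series' gene table whose name was nhr- and a number, without nhr-10, nhr-68, nhr-114, nhr-49, nhr-80, nhr-13, nhr-66, nhr-23 and nhr-25. A mean of at least 0.5 CPM (counts scaled to library size) over the 9 libraries was also required. Of 270 nhr- names in the 20306 entries of that table, 9 were left out by name, and 180 of the other 261 reached the level required. Just inside it were nhr-171 at 0.509, nhr-266 at 0.717 and nhr-216 at 0.718 CPM, and just outside it nhr-157 at 0.492, nhr-259 at 0.481 and nhr-287 at 0.446 CPM. The annotation lists 178 members as protein coding and 2 as pseudogenes.

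The 3 groups were nhr-114(gk849) mutants whose mothers received vehicle, nhr-114(gk849) mutants whose mothers received 8 µM vitamin B12, and wild-type animals whose mothers received vehicle, with 3 libraries each. None of the libraries was of wild type with maternal B12, so an effect of B12 could be compared within the mutant only. Nothing in the labels says that replicate libraries are from different cultures, and the p-values below cover only the variation between the libraries at hand, part or all of which may be technical. nhr-114 itself, which is not among the members, had 3, 4 and 4 counts in the mutant vehicle libraries, 3, 2 and 4 in the mutant B12 libraries, and 6954, 8027 and 7436 in the wild-type libraries.

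Nuclear hormone receptors are transcription factors with a zinc-finger DNA-binding domain and a pocket that in many of them binds a small lipophilic ligand. Nematodes carry an unusually large set. A few are close relatives of receptors found in flies and mammals, and most come from expansion of a lineage related to HNF4, the group to which the product of nhr-114 also belongs. Known members control molting, developmental timing, fat metabolism, detoxification and the response to diet, and for most no ligand is known.

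Library totals ran from 14461993 to 16659895 estimated counts, and 14795 genes, 179 of the members among them, were tested. nhr-171 passed too few counts to be tested. The members together took a small share of each library, 0.305% to 0.333% of counts in mutant vehicle, 0.192% to 0.212% in mutant B12 and 0.213% to 0.23% in wild type. Each of the 180 members had at least 1 count in every library, except in mutant B12 replicate 2, where 179 had. On the length-corrected TPM scale the median member had a mean level of 6.24 with quartiles of 2.99 and 10.8, below the median of 11.8 over all genes tested. The members of highest level were nhr-97 at 95.9 TPM, nhr-31 at 43.1, nhr-69 at 30.7, nhr-8 at 28.7, nhr-41 at 28.5, nhr-101 at 26.8, nhr-100 at 24.7 and nhr-35 at 23.2. Changes between groups are given in CPM scaled by TMM unless TPM is named, which corrects for differences in composition between libraries.

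Much of the family was higher in vehicle-treated mutants than in wild type. Of 179 members tested, 95 rose and 5 fell, at an edgeR adjusted p under 0.05, while 18.3% of all genes tested were called higher and 18.3% were called lower. The median member had a log2 fold change of 0.59, against 0.01 over all genes, and 157 members had a positive value. More than 2-fold changes were called for 35 members upward and 4 downward, against a background of 7.37% and 11.6%. In 117 members all mutant vehicle libraries were above all wild-type libraries, and in 7 all were below, where the background was 26.5% and 24.3%. With the level of spermatogenesis genes as a covariate, 2 members were called in place of 100. The share of all genes tested that were called went from 36.6% to 2.1%. That level nearly follows the groups (variance inflation 9.45), so it and the groups cannot be told apart. In the same comparison 19 of 30 spermatogenesis markers fell. In RNA from whole animals, fewer cells of a type and less RNA per cell cannot be told apart.

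Within the mutant, maternal B12 went with lower levels of the family. With B12, 116 members fell and 5 rose relative to vehicle-treated mutants, where 23.8% of all genes tested were called lower and 22.6% higher. The median log2 fold change was −0.71 for members, against −0.04 for all genes, and 159 members had a negative value. More than 2-fold changes were called for 45 members downward and 3 upward, against a background of 8.49% and 14.9%. In 131 members all B12 libraries lay below all vehicle libraries, and in 7 all lay above, for a background of 32.1% and 27.1%. This comparison and the one before share the mutant vehicle libraries, so values of a member in both are not independent.

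B12-treated mutants and wild type differed in fewer members. There 2 members rose and 14 fell, where 7.28% of all genes tested were called higher and 6.13% lower. The median member had a log2 fold change of −0.11, against −0.00 over all genes. The count of 16 calls was 8, none of them rises, without mutant B12 replicate 1 and 10 without mutant B12 replicate 2. The 2 rises became 6 without wild-type replicate 3 and 6 in DESeq2. The 163 members not called are not shown to be equal in these groups.

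**Figure D1:**
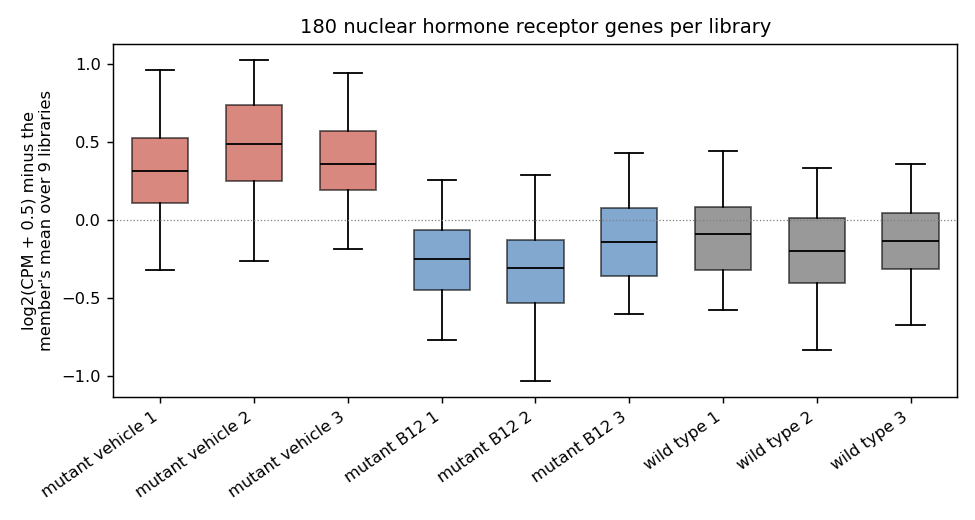
Level of the 180 receptor genes in each library, as log2(CPM + 0.5) minus each gene's mean over the 9 libraries; boxes span the quartiles, the line is the median and whiskers reach the 5 and 95 percentiles. The mutant vehicle boxes lie above those of mutant B12 and of wild type, as do their median levels of 10.2 to 12.1 CPM, against 6.23 to 6.81 CPM in mutant B12 and 6.59 to 7.22 CPM in wild type.

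Summed over the members, the family had 3010, 3436 and 3123 CPM in mutant vehicle, 2049, 1953 and 2181 CPM in mutant B12, and 2229, 2113 and 2218 CPM in wild type. The mutant vehicle libraries were the highest 3, while those of the other groups overlapped on this scale. Summed TPM was 1896, 2056 and 1988 in mutant vehicle, 1160, 1094 and 1180 in mutant B12, and 1458, 1479 and 1575 in wild type, and there the B12 libraries lay below wild type without overlap. On that scale the median of all tested genes also shifted, by −0.27 log2 in mutant B12 over wild type, against −0.40 for the members. In summed CPM, the ratio of mutant vehicle to wild type was 1.46, and it was 1.42 without nhr-97, the most abundant member. B12-treated mutants had 0.942 of the wild-type CPM sum. Counted gene by gene, 107 members (59.8%) had the mutant vehicle libraries above all 6 others, against a background of 20.4%, and 5 members (2.79%) had them below, against 17.5%. In 32 members (17.9%) the B12 libraries were below all 6 others, against 9.63%, and in 2 members above, against 9.29%.

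**Figure D2:**
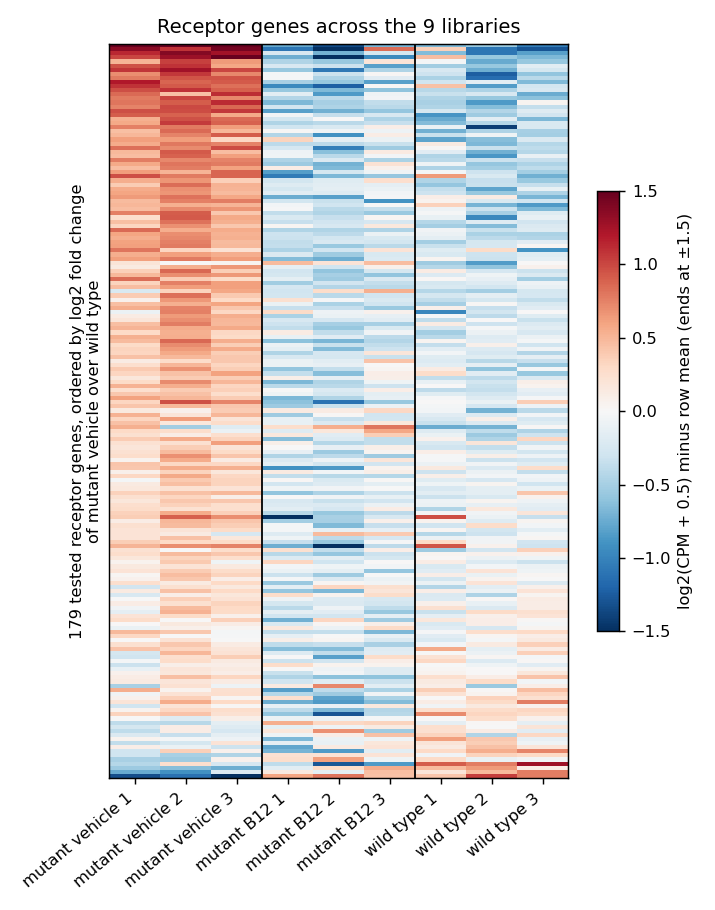
The 179 tested receptor genes (rows) in the 9 libraries (columns), ordered by log2 fold change of mutant vehicle over wild type, coloured by log2(CPM + 0.5) minus the row mean, with the scale ending at 1.5. Red fills the mutant vehicle columns over most of the height, and the few rows at the bottom, nhr-234 among them, are blue there.

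The rises were found at each level of expression. Among members averaging 10 CPM or more, 43 of 80 rose in mutant vehicle relative to wild type, for a background of 21.9% at that level. Between 2 and 10 CPM 48 of 83 rose, for 15.1%, and under 2 CPM 4 of 16 rose, for 10.7%. With B12, 55 of 80, 53 of 83 and 8 of 16 members of these levels fell relative to vehicle-treated mutants, against 29.4%, 18.2% and 12.9% of all genes. The median log2 fold change of mutant vehicle over wild type was 0.42 in the highest band and 0.87 in the lowest. The lowest band includes nhr-260, which reached the member minimum only through its mutant vehicle libraries.

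**Figure D3:**
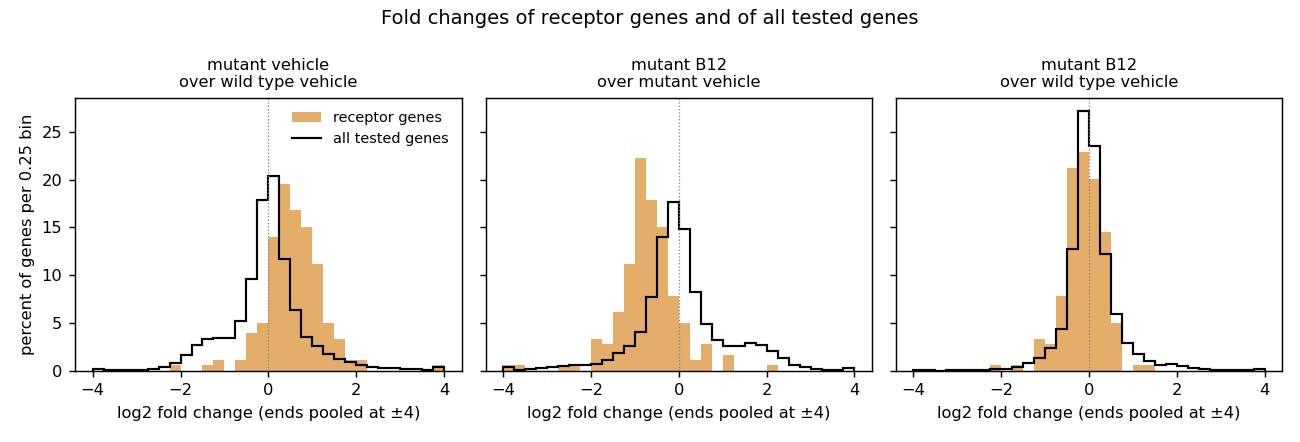
Percent of the receptor genes (filled) and of all tested genes (line) in each log2 fold change bin of 0.25, for the 3 comparisons, with the ends pooled at 4. The receptor genes lie to the right of all genes for mutant vehicle over wild type (medians of 0.59 and 0.01), to the left for mutant B12 over mutant vehicle (−0.71 and −0.04), and near them for mutant B12 over wild type (−0.11 and −0.00).

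Receptors with close relatives in flies and mammals were listed apart, and 7 of the 9 listed were tested. Of these 4 rose and 1 fell in mutant vehicle relative to wild type, where 18.3% of all genes tested were called higher and 53.1% of the members were, with a median log2 fold change of 0.56. With B12, 5 fell and 1 rose relative to vehicle-treated mutants, where 23.8% of all genes were called lower and 64.8% of the members were, with a median of −0.89, and none was called between B12-treated mutants and wild type at an edgeR adjusted p. nhr-8 (chromosome IV, 7710983 to 7714210, WBcel235), related to the vitamin D receptor and needed for cholesterol homeostasis and resistance to toxins, had 101, 112 and 92.0 CPM in mutant vehicle, 51, 56.0 and 54.8 CPM in mutant B12, and 46.2, 55.2 and 58.6 CPM in wild type. The mutant vehicle libraries stood above all others, and those of B12-treated mutants and wild type overlapped. Its log2 fold change was 0.93 ± 0.11 (SE) in mutant vehicle over wild type (edgeR adjusted p 1.33e-04) and −0.92 ± 0.11 for B12 over vehicle in the mutant (1.39e-04). The related receptor nhr-48 averaged 45.2 ± 4.93 CPM in mutant vehicle, 31.4 ± 1.45 CPM in mutant B12 and 33.7 ± 3.95 CPM in wild type (SD, n = 3 each). It rose by 0.42 (log2) in mutant vehicle over wild type (edgeR adjusted p 0.0155), a call lost without mutant vehicle replicate 2 or 3 or wild-type replicate 3 (0.0701, 0.0648 and 0.0594).

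nhr-6 (chromosome III, 3573581 to 3578771), the NR4A receptor needed to form the spermatheca, had 9.01, 8.28 and 10.1 CPM in mutant vehicle, 4.02, 2.13 and 3.21 CPM in mutant B12, and 4.96, 3.76 and 3.61 CPM in wild type. The lowest mutant vehicle library exceeded the highest of the other 6. The log2 fold change was 1.15 ± 0.24 in mutant vehicle over wild type (edgeR adjusted p 0.00383) and −1.54 ± 0.25 for B12 over vehicle (6.77e-04). nhr-85, a relative of the Rev-Erb receptors that acts in developmental timing, averaged 24.6 ± 1.36 CPM in mutant vehicle, 13.3 ± 2.13 CPM in mutant B12 and 10.5 ± 4.6 CPM in wild type (SD, n = 3 each). It was 1.23 ± 0.29 higher on the log2 scale in mutant vehicle than in wild type (edgeR adjusted p 0.00809). Its fall with B12, −0.89 ± 0.29 (0.0278), was lost when any mutant vehicle library, mutant B12 replicate 1 or mutant B12 replicate 2 was left out (0.0519 to 0.0911). Exons of nhr-85 share 477 bases with npr-14 on the opposite strand, and no source used here says whether strand was kept.

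Other conserved members moved differently. nhr-91, of the germ cell nuclear factor group, had 29.2, 33.3 and 34.4 CPM in mutant vehicle, 12.1, 6.75 and 15.4 CPM in mutant B12, and 39.6, 21.3 and 16.3 CPM in wild type. The wild-type libraries were widely spread, with replicate 1 above all mutant libraries. The B12 libraries were below the mutant vehicle ones (−1.50 ± 0.36 log2, edgeR adjusted p 0.00821), and mutant vehicle over wild type, at 0.33 ± 0.34, was not called (0.5). nhr-67, the Tailless relative used in the gonadal anchor cell, averaged 2.13 ± 1.02 CPM in mutant vehicle, 3.33 ± 0.716 CPM in mutant B12 and 1.43 ± 0.607 CPM in wild type, and was called in no comparison.

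nhr-41 (chromosome IV, 1386215 to 1399353), related to the orphan receptors TR2 and TR4, moved against most of the family. It had 53.6, 46.9 and 47.9 CPM in mutant vehicle, 77.3, 76.4 and 76.2 CPM in mutant B12, and 63.4, 83.1 and 81.3 CPM in wild type. No mutant vehicle library reached any of the others, and the B12 libraries fell inside the wild-type range. The log2 fold change was −0.62 ± 0.11 in mutant vehicle over wild type (edgeR adjusted p 0.00159) and 0.63 ± 0.11 for B12 over vehicle (0.00106). Its leading transcript of 7, Y104H12A.1a, took 66.5%, 56.3% and 44.9% of the gene's estimated counts in mutant vehicle, 92.3%, 85.4% and 94.2% in mutant B12, and 77.4%, 87.1% and 83.0% in wild type. The mutant vehicle shares were the lowest 3. These transcript shares are kallisto estimates, picked out after their values were seen, and were not tested.

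Of the development list, 5 members were tested. In mutant vehicle 2 of them, nhr-6 and nhr-85, rose relative to wild type, and both fell with B12, for the same background of 18.3% and 23.8%. nhr-40, needed for muscle and embryonic development, averaged 29.6, 24.1 and 28 CPM in mutant vehicle, mutant B12 and wild type and was not called. nhr-60, an embryonic and epidermal receptor, averaged 2.52, 2.43 and 2.85 CPM in the same order and was not called either.

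The list of receptors with roles in metabolism and stress held 10 members, all tested. Of these 7 rose and none fell in mutant vehicle relative to wild type, against shares called higher of 18.3% of all genes and 53.1% of the members, with a median log2 fold change of 0.36. The rises of nhr-31, nhr-62, nhr-69, nhr-86 and nhr-176 were each lost in at least 1 fit that left out a library. Between B12-treated and vehicle-treated mutants 8 fell and 1 rose, against shares called lower of 23.8% and 64.8%, with a median of −0.71. nhr-69, an HNF4-type receptor that acts with the SMAD protein DAF-8, had 45.9, 53.3 and 50.7 CPM in mutant vehicle, 28.4, 25.4 and 30.5 CPM in mutant B12, and 39.3, 40 and 40.1 CPM in wild type. The 3 groups did not overlap, with B12-treated mutants lowest and wild type between. The B12 libraries were lower than those of vehicle-treated mutants by −0.83 ± 0.10 log2 (edgeR adjusted p 1.27e-04) and than wild type by −0.50 ± 0.10 (0.0077). The rise in mutant vehicle over wild type, 0.33 ± 0.10 (0.021), was lost without mutant vehicle replicate 2 or 3 or wild-type replicate 3 (0.0883, 0.0756 and 0.051).

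nhr-31 (chromosome IV, 8022655 to 8029513), which is needed for the excretory cell and its proton pump genes, had 117, 131 and 124 CPM in mutant vehicle, 90.3, 93.4 and 86.7 CPM in mutant B12, and 105, 97.6 and 99.5 CPM in wild type. Mutant vehicle was highest and mutant B12 lowest without overlap. The fall with B12 was −0.46 ± 0.08 log2 (edgeR adjusted p 8.76e-04), and the rise in mutant vehicle over wild type was 0.30 ± 0.08 (0.0112), lost without mutant vehicle replicate 2 or 3 (0.0525 and 0.0556). Of its 4 transcripts, C26B2.3c.2 took 99.6% to 99.9% of the gene's estimated counts in mutant vehicle, 67.8% to 89% in mutant B12 and 67.4% to 87.6% in wild type, shares that were likewise picked out after they were seen and not tested. nhr-14, which controls iron uptake and immunity, averaged 43.3 ± 3.5 CPM in mutant vehicle, 35.3 ± 3.07 CPM in mutant B12 and 27.6 ± 1.83 CPM in wild type. Its rise in mutant vehicle was 0.65 ± 0.10 log2 (9.51e-04), and its fall with B12, −0.30 ± 0.10 (0.0384), was lost without mutant vehicle replicate 2 or 3 or mutant B12 replicate 1 or 2 (0.0533 to 0.145).

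nhr-176, which binds the drug thiabendazole and induces a cytochrome P450, averaged 13.6 ± 2.07, 6.96 ± 0.367 and 9.77 ± 0.62 CPM in mutant vehicle, mutant B12 and wild type. It fell with B12 by −0.97 ± 0.16 log2 (edgeR adjusted p 6.83e-04). nhr-57, a target of the hypoxia factor HIF-1, had 12.5, 8.72 and 10 CPM in mutant vehicle, 4.51, 6.33 and 5.94 CPM in mutant B12, and 11, 8.56 and 11.8 CPM in wild type. Mutant vehicle and wild type overlapped and the B12 libraries were below both. It fell by −0.90 ± 0.21 log2 in B12-treated mutants relative to vehicle-treated ones (0.00535). nhr-62, needed for the long life of worms on restricted diet, averaged 8.09 ± 1.09, 4.95 ± 1.05 and 5.39 ± 0.365 CPM in mutant vehicle, mutant B12 and wild type. Its rise in mutant vehicle had an edgeR adjusted p of 0.0416 and was lost without mutant vehicle replicate 1 or 3 or any wild-type library (0.065 to 0.138). Its fall with B12, −0.71 ± 0.20 log2 (0.0152), was lost without mutant vehicle replicate 1 or 3 or mutant B12 replicate 1 (0.0504 to 0.0596).

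nhr-76 (chromosome IV, 627537 to 633963), which passes a serotonin signal on to intestinal fat breakdown, was the member of this list that rose with B12. It had 10.4, 10.1 and 12.3 CPM in mutant vehicle, 20.2, 17 and 17.4 CPM in mutant B12, and 12.4, 13.8 and 12.4 CPM in wild type. The B12 libraries were above all 6 others. The log2 fold change was 0.74 ± 0.14 over vehicle-treated mutants (edgeR adjusted p 0.00144). Over wild type it was 0.50 ± 0.13 (0.0323), a call lost when any library but mutant vehicle replicate 2 was left out (0.0523 to 0.115).

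nhr-115 (chromosome V, 2292540 to 2294800) had 29.7, 35.4 and 32.5 CPM in mutant vehicle, 11.2, 7.99 and 11 CPM in mutant B12, and 8.33, 6.01 and 7.39 CPM in wild type. Every mutant vehicle library was far above the others, while B12-treated mutants and wild type overlapped. The log2 fold change was 2.17 ± 0.17 in mutant vehicle over wild type (edgeR adjusted p 9.61e-06) and −1.70 ± 0.17 for B12 over vehicle (4.84e-05). nhr-97 (chromosome IV, 9757641 to 9764499), the member of highest level, had 327, 352 and 311 CPM in mutant vehicle, 175, 165 and 203 CPM in mutant B12, and 203, 156 and 156 CPM in wild type. No other library came near those of mutant vehicle. It rose by 0.94 ± 0.12 log2 in mutant vehicle over wild type (2.41e-04) and fell by −0.87 ± 0.12 with B12 (3.16e-04).

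Among members averaging at least 2 CPM with groups apart, the largest called rises in mutant vehicle over wild type after nhr-115 were of nhr-206, nhr-84, nhr-19, nhr-112, nhr-211, nhr-213 and nhr-210, with log2 fold changes of 1.63, 1.57, 1.56, 1.54, 1.5, 1.46 and 1.43 in that order. All 7 also fell with B12, by −1.96, −0.97, −1.12, −1.86, −1.78, −1.33 and −1.16. nhr-206 had 10.6, 12.1 and 10.1 CPM in mutant vehicle, 3.05, 2.00 and 3.35 CPM in mutant B12, and 3.96, 2.67 and 3.90 CPM in wild type. The mutant vehicle libraries stood apart, and the other groups overlapped. nhr-211 had 8.05, 8.79 and 7.65 CPM in mutant vehicle, 2.44, 2.27 and 2.38 CPM in mutant B12, and 2.78, 2.67 and 3.19 CPM in wild type, with little spread in any group. Larger called rises of members under 2 CPM were those of nhr-260, nhr-265, nhr-263 and nhr-172, at 3.75, 1.93, 1.76 and 1.73 on the log2 scale. nhr-260, like them too low for the naming rule and picked out after its values were seen, had 3.39 to 3.89 CPM in mutant vehicle, 0 to 0.28 CPM in mutant B12 and 0.118 to 0.364 CPM in wild type. It reached the member minimum of 0.5 CPM only through its mutant vehicle libraries, so its changes are not independent of the rule for members.

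**Figure D4:**
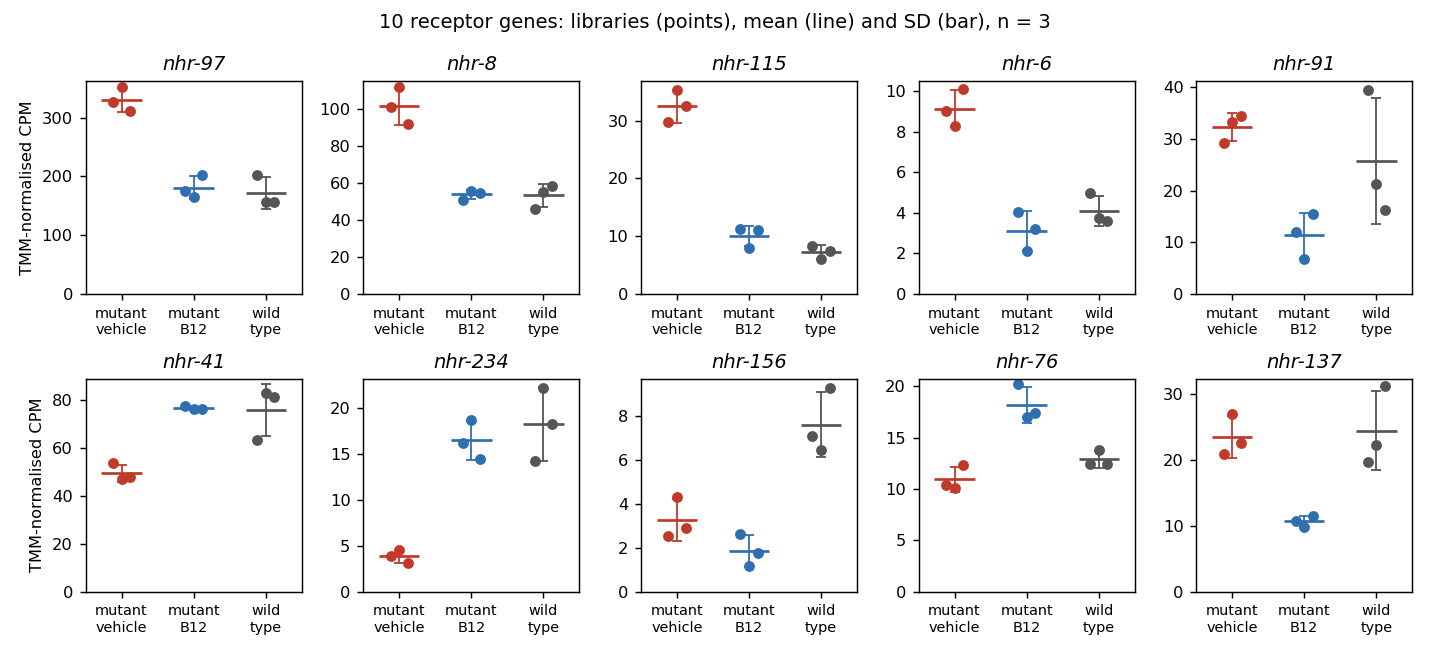
TMM-normalised CPM of 10 receptor genes in mutant vehicle, mutant B12 and wild type; points are libraries, lines the mean and bars the SD (n = 3 each). nhr-97, nhr-8, nhr-115 and nhr-6 are highest in mutant vehicle, nhr-41 and nhr-234 are lowest there, and nhr-76 is highest in mutant B12.

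The members that fell in mutant vehicle relative to wild type were nhr-234, nhr-235, nhr-181, nhr-156 and nhr-41. nhr-234 (chromosome II, 12636678 to 12638491) had 3.89, 4.58 and 3.15 CPM in mutant vehicle, 16.2, 18.7 and 14.5 CPM in mutant B12, and 14.2, 22.2 and 18.3 CPM in wild type. Mutant vehicle stood far below, and B12-treated mutants lay within the wild-type range. Its log2 fold change was −2.23 ± 0.21 in mutant vehicle over wild type (edgeR adjusted p 3.06e-05) and 2.09 ± 0.21 for B12 over vehicle (5.46e-05). nhr-235, its neighbour on the chromosome and below the level of the naming rule, averaged 0.827, 1.75 and 2.33 CPM in mutant vehicle, mutant B12 and wild type. nhr-181 (chromosome V, 4095040 to 4100541) averaged 2.01 ± 0.166, 4.17 ± 1.13 and 4.72 ± 0.973 CPM in the same order, and fell by −1.23 ± 0.27 log2 in mutant vehicle over wild type (0.00504). All of these except nhr-156 also rose with B12 relative to vehicle-treated mutants.

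nhr-156 (chromosome V, 3906106 to 3908452) was low in both mutant groups. It had 2.52, 4.33 and 2.90 CPM in mutant vehicle, 2.62, 1.17 and 1.75 CPM in mutant B12, and 7.09, 6.44 and 9.29 CPM in wild type. Neither mutant group reached the wild-type libraries, and the mutant groups overlapped. The log2 fold change relative to wild type was −1.22 ± 0.30 in mutant vehicle (edgeR adjusted p 0.00922) and −2.03 ± 0.32 in mutant B12 (0.00256), and B12 over vehicle, at −0.81 ± 0.33, was not called (0.0671).

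Several members were near wild type in vehicle-treated mutants and lower with B12. nhr-137 (chromosome X, 6661772 to 6669011) had 20.9, 27 and 22.5 CPM in mutant vehicle, 10.7, 9.85 and 11.4 CPM in mutant B12, and 19.7, 22.3 and 31.2 CPM in wild type. The B12 libraries were below the 6 others, which overlapped. Its log2 fold change was −1.19 ± 0.18 in mutant B12 over wild type (edgeR adjusted p 0.00199) and −1.14 ± 0.18 over vehicle-treated mutants (6.23e-04), while mutant vehicle over wild type, at −0.06 ± 0.17, was not called. nhr-138, nhr-22 and nhr-245 had log2 fold changes of −0.80, −0.84 and −1.22 in mutant B12 over wild type and of −0.08, 0.03 and −0.12 in mutant vehicle over wild type. nhr-121 was higher than wild type in both mutant groups, at 46.6 ± 7.53 CPM in mutant vehicle, 29.6 ± 1.13 CPM in mutant B12 and 20.5 ± 1.97 CPM in wild type. Its call for B12-treated mutants over wild type (0.53 ± 0.13 log2, 0.0211) was lost without mutant B12 replicate 1 or 2 or wild-type replicate 1 (0.0682, 0.0517 and 0.0654).

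The members lie mostly on chromosome V, with 117 there, 24 on IV, 15 on X, 11 on II, 10 on I and 3 on III. On chromosome V 64 of the 116 tested members rose in mutant vehicle relative to wild type, for a background of 22.7% of genes on that chromosome, and 74 fell with B12, for 27.8%. On chromosome IV 13 of 24 members rose and 14 fell with B12, for 18.6% and 21.9% of genes there. Of 100 members with another within 10 kb, 50 rose in mutant vehicle relative to wild type, with a median of 0.59, and of the 79 others 45 rose, with a median of 0.56, for 18.3% of all genes tested. Runs of neighbours differed among themselves. In the run of 7 at chromosome V 1603906 to 1629432 (nhr-178, nhr-177, nhr-179, nhr-117, nhr-110, nhr-237 and nhr-238) all 7 rose in mutant vehicle and all 7 fell with B12, against 22.7% and 27.8% of genes on that chromosome. In the run of 12 at 451451 to 497297, which holds nhr-211, nhr-212 and nhr-130, 6 rose and 8 fell. Of the run of 5 at chromosome IV 1613892 to 1645298, 1 rose and 1 fell. These runs were picked out after their values were seen, and near-identical copies share reads that kallisto divides by its model.

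A further list held receptors without an nhr- name, such as daf-12 and sex-1, genes listed for ligand synthesis, and coregulators. None of these is a member, and 12 of 14 were tested. Of these 3 rose and 1 fell in mutant vehicle relative to wild type, where 18.3% of all genes were called higher and 18.3% lower. The median log2 fold change of this list was −0.01 there. With B12, 6 fell and 1 rose relative to vehicle-treated mutants, where 23.8% of all genes were called lower and 22.6% higher. daf-36 and daf-9, enzymes that make dafachronic acid from cholesterol, averaged 52.2 ± 4.38 and 15.6 ± 0.625 CPM in mutant vehicle, 20.1 ± 0.197 and 5.56 ± 1.71 CPM in mutant B12, and 24.8 ± 2.45 and 6.58 ± 3.25 CPM in wild type. Both rose in mutant vehicle over wild type, by 1.08 ± 0.10 and 1.24 ± 0.31 log2 (edgeR adjusted p 3.96e-05 and 0.0103), and both fell with B12, by −1.38 and −1.49. daf-12, the receptor for this hormone, rose by 0.34 ± 0.08 (0.00815) and fell with B12 by −0.53 ± 0.08 (6.02e-04). sex-1, a receptor that counts X chromosomes, went against them, with −0.81 ± 0.24 in mutant vehicle over wild type (0.0222) and 0.93 ± 0.24 with B12 (0.00919). Of the coregulators, mdt-15 and din-1 fell in B12-treated mutants relative to wild type, by −0.31 ± 0.08 (edgeR adjusted p 0.0246) and −0.53 ± 0.11 (0.012). There gei-8, at −0.09 ± 0.11 (0.646), and cbp-1, at −0.16 ± 0.10 (0.335), were not called. These 2 falls were the only calls of the list in that comparison, where 6.13% of all genes were called lower. dhs-16 and strm-1, also on this list, were not called in mutant vehicle over wild type, at −0.04 ± 0.23 and −0.02 ± 0.27. With B12, strm-1 fell by −0.81 ± 0.28 (edgeR adjusted p 0.0351) and dhs-16 was not called.

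Markers of other tissues and of the germ line were read in the same libraries, and no list marker was at 0 in all of them. Of all genes tested, 18.3% were called higher and 18.3% lower in mutant vehicle over wild type. For B12 over vehicle in the mutant these shares were 22.6% and 23.8%. Of 30 spermatogenesis genes tested, 19 fell and none rose in mutant vehicle relative to wild type, and 23 rose with B12, with summed levels of 145 to 210 CPM in mutant vehicle, 329 to 446 CPM in mutant B12 and 307 to 372 CPM in wild type. Of 13 oocyte and yolk genes 3 fell in mutant vehicle and 9 rose with B12, at 456 to 608, 1527 to 3051 and 518 to 1205 CPM in the same order. The 3 falls were of the yolk genes vit-1, vit-3 and vit-6. In mutant vehicle over wild type rme-2, oma-1, oma-2, puf-5, puf-11, cbd-1 and egg-1 were not called. The sums came mostly from vit-2, averaging 349, 555 and 214 CPM, and vit-6, averaging 80.7, 956 and 510 CPM. Of 13 intestine genes 9 rose in mutant vehicle, and 2 rose and 8 fell with B12, at 9822 to 11602, 8497 to 9441 and 8811 to 11018 CPM. Of 16 epidermis and molt genes 8 fell and 1 rose in mutant vehicle, at 8815 to 9377 CPM, against 9384 to 12378 CPM in mutant B12 and 11810 to 14685 CPM in wild type. In this list 5 rose and 6 fell with B12 over vehicle. Between B12-treated mutants and wild type 2 rose and 9 fell, against 7.28% and 6.13% of all genes tested. Single genes of this list differed. In mutant vehicle, mutant B12 and wild type, col-19 had 9.63 to 27.4, 39.8 to 102 and 0.118 to 10.6 CPM. In the same order mlt-10 had 180 to 289, 750 to 1207 and 848 to 1250 CPM. Both were picked out after their values were seen. Of 14 neuron genes 2 rose and 1 fell in mutant vehicle, at 873 to 1008, 758 to 887 and 761 to 924 CPM. None of 12 body-wall muscle genes was called there, at 10901 to 11771, 10015 to 12404 and 11728 to 12303 CPM. With B12 over vehicle 1 neuron gene rose and 4 fell, and 1 muscle gene rose. The part of intestinal, epidermal, oocyte and neuronal RNA in the receptor values was not tested. Nor was any difference between groups in the point reached within L4.

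The mean log2 level of the 30 spermatogenesis genes, centred over the libraries, was −0.47, −1.10 and −0.69 in mutant vehicle, 0.57, 0.64 and 0.31 in mutant B12, and 0.08, 0.29 and 0.37 in wild type. Within mutant vehicle and within mutant B12 the libraries ranked by receptor sum in the opposite order to this level, and in wild type they did not. Each of these orders rests on only 3 libraries and was not tested. With the level as a covariate, 2 members, nhr-65 and nhr-115, were called in mutant vehicle over wild type and 0 with B12 over vehicle, and 2.1% and 0.385% of all genes tested were called. The median log2 fold changes of members were then 0.25 and −0.26, and 139 and 130 of 179 members kept their sign. The level nearly follows the groups (variance inflation 9.45), so it and the groups cannot be told apart in these libraries.

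**Figure D5:**
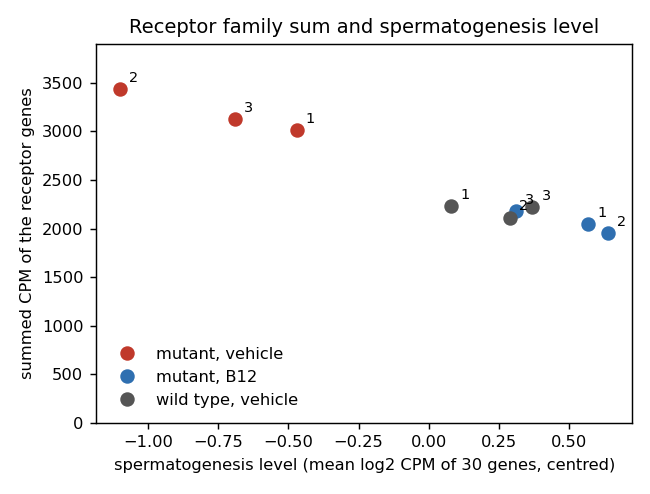
Summed CPM of the receptor genes in each library against the spermatogenesis level (mean log2 CPM of 30 genes, centred), with replicate numbers beside the points. Mutant vehicle libraries lie at upper left, with sums of 3010 to 3436 CPM, and those of mutant B12 and wild type lie at lower right, with sums of 1953 to 2229 CPM.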

How the data were processed

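Per the labels' protocols, RNA of whole L4 animals was extracted with TRIzol, made into NEBNext Ultra libraries and sequenced as paired ends. Per the submitters' processing notes, bcl2fastq split the reads by sample and kallisto (0.46.0) quantified them, and the labels give WormBase WS245 as reference. The authors deposited estimated counts for 30939 transcripts per sample, with effective lengths, and a series table of CPM per gene. From these, estimated counts were summed to 20444 genes and rounded, and TPM was computed from counts and effective lengths. Of these genes 20162 matched the WBcel235 annotation, and the rest held 0.175% of counts. For all 180 members the sums gave the deposited CPM within 1%.

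Tests used edgeR 4.0.16 in R 4.3.3 (filterByExpr, TMM, robust quasi-likelihood fits over 9 libraries) with Benjamini-Hochberg adjustment over 14795 genes and calls under 0.05. The procedure was tested on simulated data. Replicate libraries differed by more than sampling noise. Other settings tried were upper quartile and RLE scaling, no filter, 1 CPM in 3 libraries, fits of 6 libraries, DESeq2 1.42.0, limma 3.58.1 on log2(deposited CPM + 1), a replicate block, a spermatogenesis covariate, a 2 CPM member minimum and leaving out each library. The log2 values used for limma were computed here from the CPM the authors deposited. Of the members, 44 share exon bases with another annotated gene.

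Members and lists were chosen with earlier results of these data known. Members named were, per comparison, the 8 largest rises and falls among calls with groups apart and a mean of at least 2 CPM, the 8 of highest TPM, and all of 3 receptor lists, 42 in all, of which a subset is described. Exceptions are marked where they stand. Python 3.11.15 was used for sums and plots.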

Additional observations from a re-analysis of the deposited data

How the results depend on the processing

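The family counts kept their direction under the scaling, filter, tool and member-minimum alternatives. Against 100, 121 and 16 members called in mutant vehicle over wild type, mutant B12 over mutant vehicle and mutant B12 over wild type, upper quartile scaling gave 84, 110 and 17, no filter 89, 110 and 15, and limma on log2(deposited CPM + 1) 102, 126 and 18. Leaving out 1 library gave 73 to 102, 95 to 123 and 8 to 18. Deviations of same-numbered libraries correlated from −0.22 to 0.37, and those of differently numbered libraries from −0.42 to 0.27. With 3 libraries per group these values neither show nor exclude a pairing by replicate number. The replicate block gave 92, 113 and 13. With the spermatogenesis covariate the counts were 2, 0 and 10. Of 75 calls on named members, 10 then kept their call, 56 lost it and 9 turned sign, without significance. These were nhr-14 (0.00), nhr-48 (0.03), nhr-84 (0.02), nhr-91 (0.13), nhr-100 (0.15) and nhr-173 (0.48) for B12 over vehicle, and nhr-48 (−0.02), nhr-69 (−0.00) and nhr-130 (−0.14) for mutant vehicle over wild type. No named call turned sign under the other alternatives. Upper quartile scaling and the fits of 6 libraries each ended 7 of them, no filter 5, RLE scaling, limma and the block 2 each, and DESeq2 1 (nhr-14 with B12), and leaving out 1 library ended 67 of 675; the falls of nhr-14 and nhr-173 with B12 were among those ended by RLE scaling. Low counts limit the members under 2 CPM, and 3 libraries per group limit all.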
